A study of Mus musculus with 21 samples.

Results

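The genes described here are 9 members of the pathway that joins the T cell receptor (TCR) to nuclear factor kappa B (NF-κB): the signalling genes Malt1 and Bcl10, the transcription factor genes Nfkb1, Nfkb2, Rel and Relb, and the inhibitor genes Nfkbia, Tnfaip3 and Tnip3. They were chosen with earlier results of these data known and matched by name, and all 9 of 9 were found among the 47643 genes of the count table. Messenger RNA was counted from 3′ ends in CD4+ T cells sorted from spleens of Tg4 Nr4a3-Tocky Tiger mice, in 21 libraries from 7 groups of 3 mice. All mice, controls included, carried the Tg4 transgenic TCR for a myelin basic protein (MBP) peptide, an Nr4a3-driven fluorescent Timer protein that is blue when new and red when mature, and an Il10-GFP reporter. The control group was untreated. The other 6 groups were injected under the skin, without adjuvant, with [4Y] MBP peptide at a low dose of 0.8 µg or a high dose of 80 µg, and spleens were taken after 4 h, 12 h or 24 h. Male and female mice were used per the study's methods, and their ages were not given in the sources used here. By those methods, Blue+Red− cells were sorted at 4 h, Blue+Red+ cells at 12 h and Blue−Red+ cells at 24 h, so time and sorting gate cannot be told apart. The gate of the control cells was not given in the sources used here, and the reporter selects cells that received a TCR signal.

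In T cells, a triggered TCR activates protein kinase C theta, and signalling proteins downstream of it recruit ubiquitin ligases and switch on the IκB kinase (IKK). IKK marks the inhibitor IκBα, the product of Nfkbia, for destruction, and dimers of the REL family enter the nucleus and bind κB sites. MALT1 is both a scaffold and a protease that cleaves several negative regulators. Nfkbia, Tnfaip3 and several REL family genes are well known NF-κB targets themselves, so the pathway writes its own feedback.

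Upstream sequences of 6 of the 9 members (Bcl10, Nfkb2, Rel, Nfkbia, Tnfaip3 and Tnip3) were matched in RefSeq (GRCm38.p6), and each had a match to the κB consensus in the 250 bases before at least 1 of its RefSeq starts. Of 27025 genes, 4.455% had such a match on either strand in any of their windows, as did 3.899% of all 32851 windows. The AP-1 motif TGANTCA, searched on both strands, matched 6.749% of all windows, and among these members it matched 1 window each of Nfkb2 and Tnfaip3. One of the Tnfaip3 windows held no κB match. A match is a description of the letters and shows no binding. The stretches below are those of the matched members that were called against the control at 4 h at both doses, and each is written 5′ to 3′ on the strand of its gene with the κB matches in capitals (overlapping matches run together). They lie at chr19:46304637-46304736 on the plus strand (Nfkb2), chr11:23771007-23771106 on the minus strand (Rel), chr12:55492648-55492747 on the minus strand (Nfkbia), chr10:19015481-19015580 on the minus strand (Tnfaip3) and chr6:65590298-65590397 on the plus strand (Tnip3).
Nfkb2: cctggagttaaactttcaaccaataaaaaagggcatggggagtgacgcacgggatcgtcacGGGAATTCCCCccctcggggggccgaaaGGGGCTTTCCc
Rel: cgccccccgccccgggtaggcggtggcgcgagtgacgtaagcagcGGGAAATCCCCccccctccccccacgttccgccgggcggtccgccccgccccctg
Nfkbia: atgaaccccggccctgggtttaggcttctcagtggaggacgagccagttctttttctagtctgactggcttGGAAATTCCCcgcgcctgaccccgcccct
Tnfaip3: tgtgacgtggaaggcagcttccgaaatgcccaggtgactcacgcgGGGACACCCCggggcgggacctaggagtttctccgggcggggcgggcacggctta
Tnip3: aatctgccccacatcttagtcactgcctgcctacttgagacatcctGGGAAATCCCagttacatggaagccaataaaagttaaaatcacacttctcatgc

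On GRCm38 (GENCODE vM21), Malt1 lies on chromosome 18 (65430938 to 65479067, plus strand), Bcl10 on chromosome 3 (145922804 to 145934356, plus strand) and Nfkb1 on chromosome 3 (135584655 to 135691547, minus strand). Nfkb2 lies on chromosome 19 (46304320 to 46312385, plus strand), Rel on chromosome 11 (23736847 to 23770970, minus strand) and Relb on chromosome 7 (19606217 to 19629438, minus strand). Nfkbia lies on chromosome 12 (55489410 to 55492647, minus strand), Tnfaip3 on chromosome 10 (19000910 to 19015657, minus strand) and Tnip3 on chromosome 6 (65525313 to 65634040, plus strand). All 9 are protein-coding. The last exon of Nfkb2 overlaps Psd on the opposite strand by 299 bases, and as the strand setting of the counting was not given in the sources used here, its counts are uncertain to that extent.

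Library totals ran from 2352800 to 6244279 counts. All 8 CD4 T cell markers were present in every group, with a summed level from 3086 to 3341 CPM (counts scaled to equal library totals) in the control and from 1584 to 1667 CPM in the 0.8 µg group at 12 h. The summed level of 6 B cell markers was 37.8 to 80.6 CPM in the control and 2.03 to 42.4 CPM over the immunised groups, and that of 3 NK cell markers was 16.9 to 25.3 CPM in the control and at most 1.28 CPM at 4 h. Of the summed levels of 8 marker lists, 2 did not overlap between the doses at 4 h (CD4 T cell, 1977 to 2121 CPM after 0.8 µg and 1871 to 1949 CPM after 80 µg, and monocyte or macrophage, 4.59 to 25.4 and 0.46 to 4.38 CPM). At 12 h 2 did not (CD4 T cell, 1584 to 1667 and 1803 to 1907 CPM, and CD8 T cell, 43.6 to 51.3 and 13.1 to 22.7 CPM). At 24 h 4 did not (B cell, 27.0 to 36.3 and 7.53 to 16.0 CPM, CD8 T cell, 34.3 to 40.9 and 20.1 to 28.8 CPM, dendritic cell, 0.97 to 3.25 and 0 to 0.16 CPM, and NK cell, 4.73 to 7.39 and 8.59 to 9.93 CPM). The dendritic cell levels after 80 µg at 24 h lay below the level of 3 counts per library (0.48 to 0.81 CPM). The share of all genes whose ranges did not overlap between doses is not given here. The part of cells of these types in the comparisons with the control and between doses was not tested. The library of 0.8 µg 12 h replicate 3 stood apart from its group. Its chi-square of the counts per degree of freedom was 13.4 and 13.2 against the other mice, which had 3.28 between them. The values of 80 µg 12 h replicate 2 were 8.12 and 8.83, with 4.63 between the other mice of its group. Those of 0.8 µg 24 h replicate 3 were 6.33 and 7.29, with 4.05 between the others. Results of the 0.8 µg 12 h group are given below with all libraries. They are also given without its replicate 3 where leaving it out changed a call or moved a called value by over 1.5 times. For genes in which it was the odd mouse, only some values are also given without it. In these bulk samples, fewer cells of a type and less RNA per cell cannot be told apart. Levels below are normalised counts (counts divided by DESeq2 size factors), given per mouse or as mean ± SD with n = 3. Calls needed both a DESeq2 p under 0.05 after Benjamini-Hochberg adjustment and a shrunken log2 fold change above 1 in size.

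**Figure D1:**
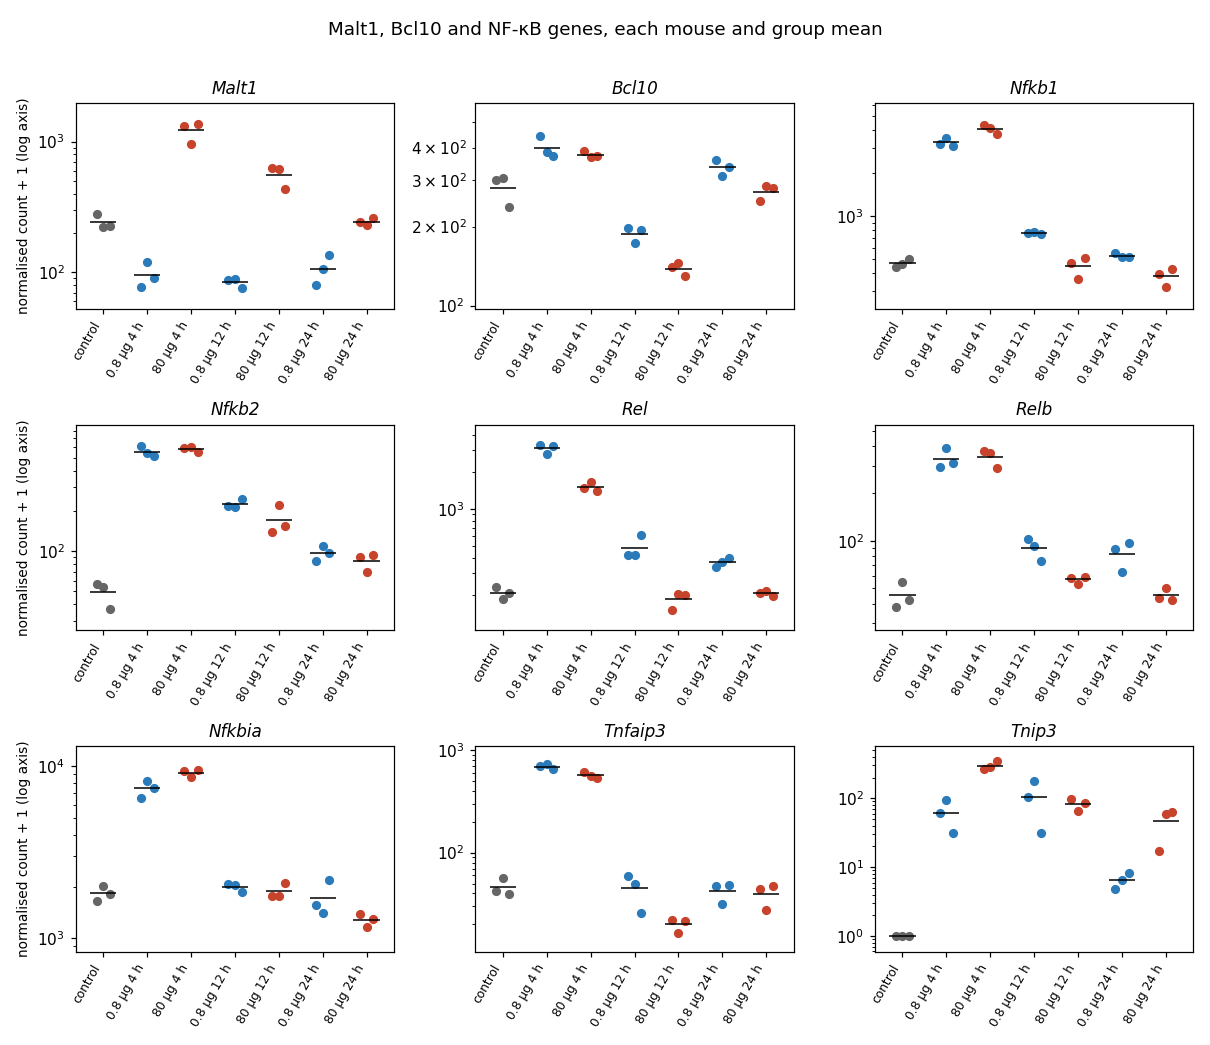
Normalised count + 1 on a log axis for each of the 9 genes (panels) in the 7 groups, with a point per mouse and a line at the group mean (grey control, blue 0.8 µg, red 80 µg). Malt1 is above the control after 80 µg at 4 h and 12 h and below it in the 0.8 µg groups, while Nfkb1, Nfkb2, Rel, Relb, Nfkbia and Tnfaip3 peak at 4 h at both doses.

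Malt1, which encodes a protease and scaffold, was the member with the largest difference between the doses at 4 h and at 12 h. The study singled it out from these same libraries for its response to dose, so its direction is not independent evidence. At 4 h its normalised counts were 76.7, 119 and 89.6 after 0.8 µg and 1323, 966 and 1361 after 80 µg, beside 279, 222 and 224 in the control. The low-dose mice all lay below the control mice and the high-dose mice all lay above them. The log2 fold change of 80 µg against 0.8 µg was 3.66 (SE 0.19, adjusted p = 6.21e-77).

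At 12 h Malt1 counts were 86.3, 88.8 and 75.1 after 0.8 µg and 630, 614 and 431 after 80 µg. The gap between the doses was smaller than at 4 h but the groups again did not overlap, with a log2 fold change of 2.71 (SE 0.19, adjusted p = 4.02e-41). After 24 h they were 78.9, 104 and 135 against 240, 231 and 259. The log2 fold change was then 1.19 (SE 0.19, adjusted p = 1.36e-07), and the high-dose mice now lay among the control mice. Its order of group means was 80 µg at 4 h, 80 µg at 12 h, 80 µg at 24 h, control, and then the 0.8 µg groups at 24 h, 4 h and 12 h. Ranges overlapped between 80 µg at 24 h and the control, and between neighbours among the 0.8 µg groups.

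Against the control, Malt1 was lower after 0.8 µg at all 3 times, with log2 fold changes of -1.35 (SE 0.20) at 4 h, -1.52 (SE 0.20) at 12 h and -1.18 (SE 0.19) at 24 h. After 80 µg it was higher at 4 h by 2.31 (SE 0.18) and at 12 h by 1.20 (SE 0.18). At 24 h the difference was 0.01 (95% interval -0.35 to 0.37, adjusted p = 0.98) and was not called. With scaling by library totals this last value was -0.22. All comparisons with the control share the same 3 control libraries.

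Bcl10, which encodes a signalling adaptor, was called between the doses at none of the 3 times by DESeq2 or edgeR. Its counts at 4 h were 443, 383 and 369 after 0.8 µg and 388, 366 and 372 after 80 µg. The groups overlapped, and the log2 difference was -0.09 (95% interval -0.33 to 0.15, adjusted p = 0.771). Both doses were above the control (299, 305 and 237) by less than the threshold of 1. At 12 h it was at its lowest, with 196, 172 and 193 after 0.8 µg and 139, 145 and 128 after 80 µg. The 80 µg group was called lower than the control at 12 h (log2 fold change -1.03, SE 0.13, adjusted p = 1.03e-13); that value was -0.99 without control replicate 1, -0.97 without control replicate 2 and -0.98 without 80 µg replicate 3, and -0.94 in a fit of these 6 libraries alone. Each of these ends the call, as does TMM scaling. The doses did not overlap at 12 h, and their log2 difference was -0.44 (SE 0.14, adjusted p = 0.0281), under the fold threshold, with an adjusted p of up to 0.202 under the alternatives. At 24 h Bcl10 was back at 335 ± 22.9 and 271 ± 18.6 normalised counts after 0.8 µg and 80 µg, without overlap (log2 difference -0.30, SE 0.12, adjusted p = 0.141).

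Among the REL family genes, Rel, which encodes c-Rel, the subunit best known in activated lymphocytes, was higher after the low dose. At 4 h its counts were 3326, 2820 and 3231 after 0.8 µg and 1483, 1651 and 1395 after 80 µg, with 231, 185 and 206 in the control. Every low-dose mouse lay above every high-dose mouse, and both doses lay above the control. The log2 fold change of 80 µg against 0.8 µg was -1.05 (SE 0.13, adjusted p = 1.35e-14), close to the threshold of 1. Without 0.8 µg replicate 1 or without 80 µg replicate 3 it was -0.99 and not called, though its adjusted p stayed under 0.05.

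At 12 h Rel counts were 417, 421 and 607 after 0.8 µg and 149, 201 and 196 after 80 µg. In the high-dose group 2 mice lay within the range of the control and 1 below it, and the log2 fold change between doses was -1.39 (SE 0.14, adjusted p = 8.28e-20), or -1.19 without 0.8 µg replicate 3, the highest mouse. By 24 h they were 334, 370 and 397 against 204, 214 and 194, with no overlap. The log2 fold change of -0.84 (SE 0.14, adjusted p = 4.49e-07) was under the fold threshold.

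Nfkb1, which encodes p105 and its processed product p50, was high at 4 h at both doses, with counts of 3189, 3528 and 3072 after 0.8 µg and 4308, 4124 and 3712 after 80 µg against 443, 459 and 498 in the control. The high-dose mice all lay above the low-dose mice, by a log2 fold change of 0.31 (SE 0.10, adjusted p = 0.0285). The order of the doses was the opposite at the later times. At 12 h the counts were 768, 775 and 748 after 0.8 µg and 468, 364 and 509 after 80 µg (a log2 fold change of -0.78 with an SE of 0.11, adjusted p = 1.04e-09), and at 24 h the log2 fold change was -0.47 (SE 0.11, adjusted p = 0.00209). None of these 3 differences passed the fold threshold, and by adjusted p alone all 3 did. The 4 h difference did not with edgeR (0.058), with scaling by library totals (0.115) or without 0.8 µg replicate 1 (0.123) or 3 (0.174) or 80 µg replicate 1 (0.187) or 2 (0.114), nor did the 24 h difference without 80 µg replicate 2 (0.059).

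Nfkb2 and Relb encode the p100/p52 and RelB subunits, which act together in the noncanonical arm of the pathway. Nfkb2 counts at 4 h were 615, 539 and 510 after 0.8 µg and 588, 605 and 549 after 80 µg, against 55.7, 52.7 and 35.7 in the control. The doses overlapped at every time, and the log2 differences were 0.06 at 4 h (95% interval -0.24 to 0.37), -0.39 at 12 h (-0.71 to -0.06) and -0.20 at 24 h (-0.56 to 0.17). The 12 h difference had an adjusted p of 0.183, and it was -0.61 (adjusted p = 0.00927) without 80 µg 12 h replicate 2 and -0.26 (adjusted p = 0.52) without 80 µg 12 h replicate 1. Nfkb2 was still above the control at 12 h, by log2 2.17 (SE 0.20) after 0.8 µg and 1.78 (SE 0.20) after 80 µg. At 24 h its difference from the control was 0.96 (SE 0.21, adjusted p = 3.08e-05) after 0.8 µg, just under the threshold, and it was called without control replicate 1 (1.06), control replicate 2 (1.01) or 0.8 µg replicate 1 (1.05).

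Relb counts at 4 h were 295, 389 and 311 after 0.8 µg and 369, 358 and 290 after 80 µg, against 37.1, 53.7 and 41.4 in the control. The doses overlapped at 4 h (log2 difference 0.03, 95% interval -0.31 to 0.38), and at 12 h the groups of 102, 91.8 and 74.0 and of 57.6, 52.1 and 58.3 did not. The log2 fold changes of 80 µg against 0.8 µg were -0.67 (SE 0.21, adjusted p = 0.027) at 12 h and -0.87 (SE 0.22, adjusted p = 0.00267) at 24 h. Neither was called, and the adjusted p at 12 h was up to 0.188 on leaving out a library and 0.149 in a fit of these 6 libraries alone. The 24 h value was -1.03 and called without 0.8 µg replicate 2. Against the control, Relb in the 0.8 µg group at 12 h stood at the threshold (1.00, SE 0.23), and leaving out control replicate 1 (0.87), control replicate 3 (0.95), 0.8 µg replicate 1 (0.91) or 0.8 µg replicate 2 (0.98) ended that call. At 24 h after 0.8 µg it was 0.87 (SE 0.23) and not called, and without control replicate 2 or without 0.8 µg replicate 2 it was 1.04 and called.

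Of the inhibitors, Nfkbia encodes IκBα, which holds NF-κB dimers in the cytoplasm. Its counts at 4 h were 6541, 8268 and 7530 after 0.8 µg and 9414, 8731 and 9480 after 80 µg, against 1652, 2024 and 1803 in the control. The doses did not overlap, but the log2 difference of 0.31 (95% interval 0.06 to 0.55) had an adjusted p of 0.0939. At 12 h both doses overlapped the control, and the log2 difference between them was -0.08 (SE 0.13). At 24 h the 80 µg mice (1389, 1162 and 1287) all lay below the 0.8 µg mice (1561, 1396 and 2196), with a log2 fold change of -0.42 (SE 0.13, adjusted p = 0.0199), under the fold threshold. That adjusted p was 0.355 without 0.8 µg replicate 3, 0.137 without 80 µg replicate 2, 0.070 without 80 µg replicate 3 and 0.051 in a fit of these 6 libraries alone.

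Tnfaip3 encodes A20, an enzyme that edits ubiquitin chains and restrains NF-κB signalling. Its counts at 4 h were 692, 723 and 650 after 0.8 µg and 611, 551 and 532 after 80 µg, against 41.2, 55.8 and 38.5 in the control. Both doses were far above the control, and the log2 difference between them was -0.28 (95% interval -0.63 to 0.06, adjusted p = 0.373). At 12 h the counts were 58.8, 48.1 and 24.7 after 0.8 µg and 21, 15.4 and 20.4 after 80 µg. The high-dose mice were then below both the low-dose and the control mice. The log2 fold change between doses was -1.22 (SE 0.27, adjusted p = 0.000315); it was -1.47 without 0.8 µg replicate 3, the lowest of its group, -0.99 and not called without 0.8 µg replicate 1, and -0.76 (adjusted p = 0.079) in a fit of these 6 libraries alone. Against the control at 12 h the 80 µg group was lower by -1.25 (SE 0.27, adjusted p = 1.74e-05). At 24 h the 2 doses overlapped, at 41.7 ± 9.44 and 38.5 ± 10.5 normalised counts (log2 difference -0.11, SE 0.24).

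Tnip3 encodes a protein that binds A20. The study placed it in a list of genes of strong TCR signalling with knowledge of these libraries, so the same holds for its direction. It had 0 counts in all 3 control libraries, and its differences from the control are given as lower bounds against a floor of 3 counts per library. Its normalised counts at 4 h were 60.6, 92.2 and 30.2 after 0.8 µg and 267, 283 and 342 after 80 µg. No low-dose mouse reached the high-dose mice, with a log2 fold change of 2.13 (SE 0.54, adjusted p = 0.00161).

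At 12 h the Tnip3 counts were 102, 175 and 30.5 after 0.8 µg and 95.9, 65.3 and 83.6 after 80 µg. The doses overlapped, and the log2 difference of -0.31 (95% interval -1.37 to 0.75, adjusted p = 0.864) was 0.31 without 0.8 µg replicate 2 and -0.72 without 0.8 µg replicate 3. By 24 h they were 3.89, 5.59 and 7.23 after 0.8 µg and 16.4, 57.4 and 61.6 after 80 µg. The high dose was higher in every mouse (log2 fold change 2.66, SE 0.59, adjusted p = 0.000569), from low levels, and the log2 fold change was 1.35 in a fit of these 6 libraries alone. Against the control, Tnip3 was at least 17.6-fold higher at 4 h after 0.8 µg and at least 85.7-fold higher after 80 µg.

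**Figure D2:**
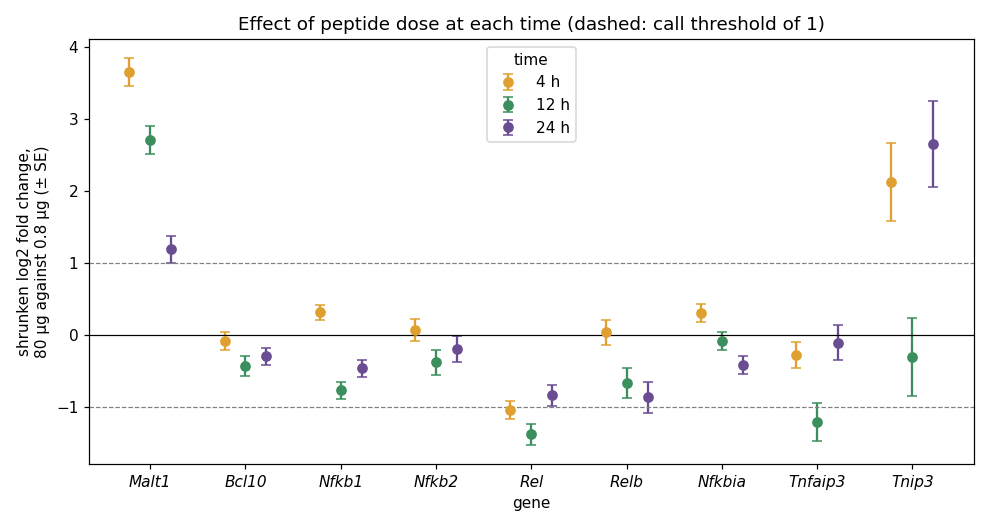
Shrunken log2 fold change of 80 µg against 0.8 µg (y axis, points ± SE) for the 9 genes (x axis) at 4 h, 12 h and 24 h, with dashed lines at the call threshold of 1. Malt1 falls from 3.66 to 1.19 over the 3 times, Rel stays below 0 at all of them, and Tnip3 is above 2 at 4 h and 24 h but near 0 at 12 h.

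Counted over the members, 3 of 9 were called between the doses at 4 h (Malt1 and Tnip3 higher after 80 µg, Rel lower), beside 5.85% of all genes tested. At 12 h 3 of 9 were called (Malt1 higher, Rel and Tnfaip3 lower), beside 2.79% of all genes tested. At 24 h 2 of 9 were called (Malt1 and Tnip3 higher), beside 1.56% of all genes tested. By adjusted p alone 4, 6 and 6 of 9 passed at the 3 times, beside 12%, 6.27% and 5.93% of all genes tested. Malt1 and Tnip3, which the study had picked from these libraries, are part of these counts. The members' median log2 fold change was 0.06 at 4 h, -0.44 at 12 h and -0.30 at 24 h, against -0.02, 0.01 and 0.02 over all genes tested.

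A likelihood ratio test of dose by time in the 18 immunised libraries asked whether the effect of dose changed over time. It called 6 of 9 members, beside 10.3% of all genes tested. They were Malt1 (adjusted p = 6.59e-16), Nfkb1 (1.53e-09), Tnip3 (0.00492), Nfkbia (0.00555), Relb (0.0217) and Tnfaip3 (0.0322). Rel (0.145), Nfkb2 (0.404) and Bcl10 (0.426) did not pass. Relb was not called on leaving out 0.8 µg 4 h replicate 1 (0.103) or 3 (0.094), 80 µg 4 h replicate 1 (0.094) or 2 (0.083), 0.8 µg 24 h replicate 1 (0.052) or 80 µg 24 h replicate 3 (0.059). Tnfaip3 was not called with edgeR (0.059), with scaling by library totals (0.070) or with a replicate block (0.053). It was also lost on leaving out 0.8 µg 4 h replicate 1 (0.057) or 3 (0.066), 80 µg 4 h replicate 1 (0.057), 0.8 µg 12 h replicate 1 (0.241) or 2 (0.130), 80 µg 12 h replicate 2 (0.181), 0.8 µg 24 h replicate 2 (0.058), or 80 µg 24 h replicate 1 (0.056) or 3 (0.068).

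Against the control at 4 h, 8 of 9 members were called after 0.8 µg, beside 40.7% of all genes tested, and 8 of 9 after 80 µg, beside 43.5%. After 0.8 µg 7 (Nfkb1, Nfkb2, Rel, Relb, Nfkbia, Tnfaip3 and Tnip3) were higher (17.3% of all genes were) and Malt1 was lower, and after 80 µg these 7 and Malt1 were higher (18.4% of all genes were). Bcl10 was the member not called at either dose. Rel and Tnfaip3 were up by 3.90 (SE 0.14) and 3.88 (SE 0.22) after 0.8 µg, and Nfkb2 and Tnfaip3 by 3.54 (SE 0.20) and 3.59 (SE 0.22) after 80 µg, on the log2 scale. The members' median log2 fold change was 2.87 after 0.8 µg and 2.90 after 80 µg, also with Tnip3 at its bound, against -0.13 and -0.15 over all genes tested.

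At 12 h 5 of 9 members were called after 0.8 µg (Nfkb2, Rel, Relb and Tnip3 higher, Malt1 lower), beside 37.7% of all genes tested. After 80 µg 5 of 9 were called (Malt1, Nfkb2 and Tnip3 higher, Bcl10 and Tnfaip3 lower), beside 37.9%. Those not called had log2 differences of -0.60 (Bcl10), 0.71 (Nfkb1), 0.13 (Nfkbia) and -0.03 (Tnfaip3) after 0.8 µg, and of -0.07 (Nfkb1), -0.18 (Rel), 0.33 (Relb) and 0.04 (Nfkbia) after 80 µg. At 24 h the calls were Malt1 lower and Tnip3 higher after 0.8 µg (2 of 9, beside 17.3%) and Tnip3 higher after 80 µg (1 of 9, beside 20.2%). The other 7 members after 0.8 µg ran from -0.13 (Tnfaip3) and -0.09 (Nfkbia) through Nfkb1 (0.18), Bcl10 (0.25), Rel (0.82) and Relb (0.87) to 0.96 (Nfkb2). After 80 µg the other 8 ran from -0.51 (Nfkbia), -0.29 (Nfkb1) and -0.24 (Tnfaip3) through Bcl10 (-0.05), Rel (-0.02), Relb (0.0029) and Malt1 (0.01) to 0.76 (Nfkb2). By adjusted p alone, 5 of 9 passed at 24 h after 0.8 µg, beside 36% of all genes tested, and 4 of 9 after 80 µg, beside 39.1%. Tnip3 at 24 h was at least 1.6-fold higher than the control after 0.8 µg and at least 13.0-fold higher after 80 µg.

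**Figure D3:**
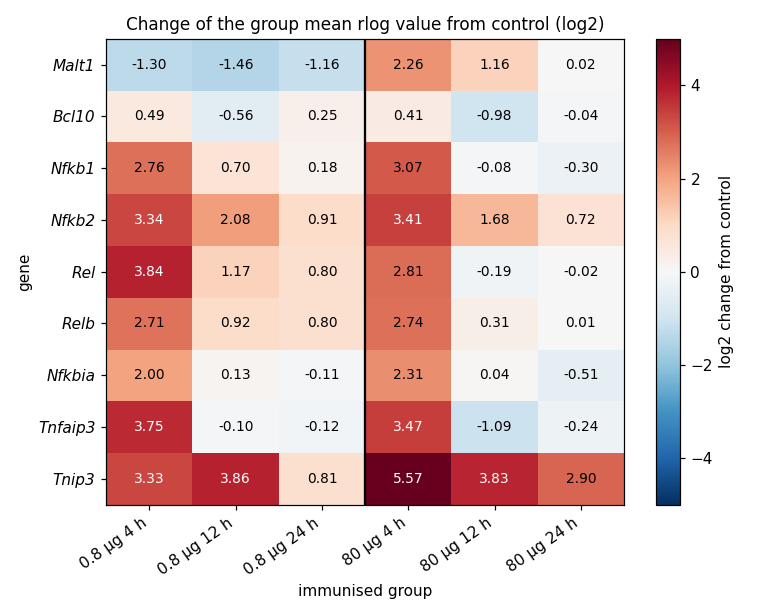
Change of each gene's group mean of the deposited rlog values from the control mean (log2, colour and printed value) for the 9 genes (rows) in the 6 immunised groups (columns, 0.8 µg left of the line and 80 µg right). Malt1 is negative in all 0.8 µg groups, and the values of Nfkb1, Rel, Relb, Nfkbia and Tnfaip3 above 2 are all at 4 h. Tnip3 had 0 counts in the control, so the size of its values depends on the transformation.

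From 4 h to 12 h most members fell. After 0.8 µg 7 of 9 were called lower at 12 h, all but Malt1 and Tnip3, beside 7.98% of all genes called lower and 20.5% called either way. After 80 µg all 9 were called lower, beside 9.1% called lower and 24.8% either way. The log2 fold change of Tnfaip3 was -3.91 (SE 0.21) after 0.8 µg and -4.84 (SE 0.24) after 80 µg, and that of Nfkb1 was -2.09 (SE 0.11) and -3.17 (SE 0.11). The fall of Malt1 after 80 µg (-1.11, SE 0.17) was -0.97 and not called without 80 µg 12 h replicate 3. Scaling by library totals ended this call too, and that of Bcl10 after 0.8 µg (-0.94). Tnip3 after 0.8 µg had a log2 difference of 0.70 (SE 0.54), which was 1.13 and called higher without 0.8 µg 12 h replicate 3.

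From 12 h to 24 h after 0.8 µg 2 of 9 were called, Nfkb2 lower by -1.21 (SE 0.18) and Tnip3 lower by -3.74 (SE 0.59; -4.33 without 0.8 µg 12 h replicate 3), beside 26.6% of all genes tested. The other 7 members had log2 differences of 0.34 (Malt1), 0.84 (Bcl10), -0.53 (Nfkb1), -0.38 (Rel), -0.13 (Relb), -0.22 (Nfkbia) and -0.10 (Tnfaip3). The Rel difference had an adjusted p of 0.0131. Over the alternatives it ran from -0.50 to -0.19, with an adjusted p of up to 0.225. After 80 µg 3 of 9 were called, beside 27.2%: Malt1 lower by -1.19 (SE 0.18), Nfkb2 lower by -1.02 (SE 0.18) and Tnfaip3 higher by 1.00 (SE 0.27). Nfkb2 was -0.79 without 80 µg 12 h replicate 2 and -0.88 without 80 µg 24 h replicate 2, which ended its call. Tnfaip3 was not called without 80 µg 12 h replicate 2 (0.84), 80 µg 24 h replicate 1 (0.95) or 80 µg 24 h replicate 3 (0.83), nor with scaling by TMM (0.99) or by library totals (0.80), nor in a fit of these 6 libraries alone (0.90, adjusted p = 0.060). Bcl10 after 80 µg had a log2 difference of 0.98 (SE 0.13), just under the threshold, and was called without 80 µg 12 h replicate 2 (1.02) or 80 µg 24 h replicate 1 (1.03). The other 5 members not called had log2 differences of -0.78 (Tnip3), -0.55 (Nfkbia), -0.32 (Relb), -0.22 (Nfkb1) and 0.16 (Rel). By adjusted p alone, 5 of 9 passed from 12 h to 24 h at each dose, beside 44% of all genes tested after 0.8 µg and 44.7% after 80 µg.

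A list of 43 other NF-κB pathway genes, all tested, was compared between the doses. At 4 h 1 of 43 was called (2 without 80 µg 4 h replicate 1), beside 5.85% of all genes tested. It was Ikbke, an IKK-related kinase, with 14.5 ± 5.74 normalised counts after 80 µg and 90.8 ± 8.54 after 0.8 µg (log2 fold change -2.61, SE 0.28, adjusted p = 8.74e-19). At 12 h 1 of 43 was called, beside 2.79% of all genes tested. It was Zc3h12a, which encodes Regnase-1, an RNase that is cleaved by MALT1. Its normalised counts were 13.6 ± 4.73 after 80 µg and 40.2 ± 3.88 after 0.8 µg, a log2 fold change of -1.53 (SE 0.32, adjusted p = 0.000142). A fit of these 6 libraries alone called 0 of 43. At 24 h DESeq2 and edgeR each called 0 of 43, beside 1.56% of all genes tested by DESeq2, with 10 of 43 at an unadjusted p under 0.05, beside 17% of all genes tested. At 4 h and 12 h the unadjusted p was under 0.05 for 12 and 11 of 43, beside 21.4% and 16.9%. By adjusted p alone 8, 7 and 3 of 43 passed at the 3 times, beside 12%, 6.27% and 5.93% of all genes tested. The list's median log2 fold change was 0.06, 0.08 and -0.05 at the 3 times.

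**Figure D4:**
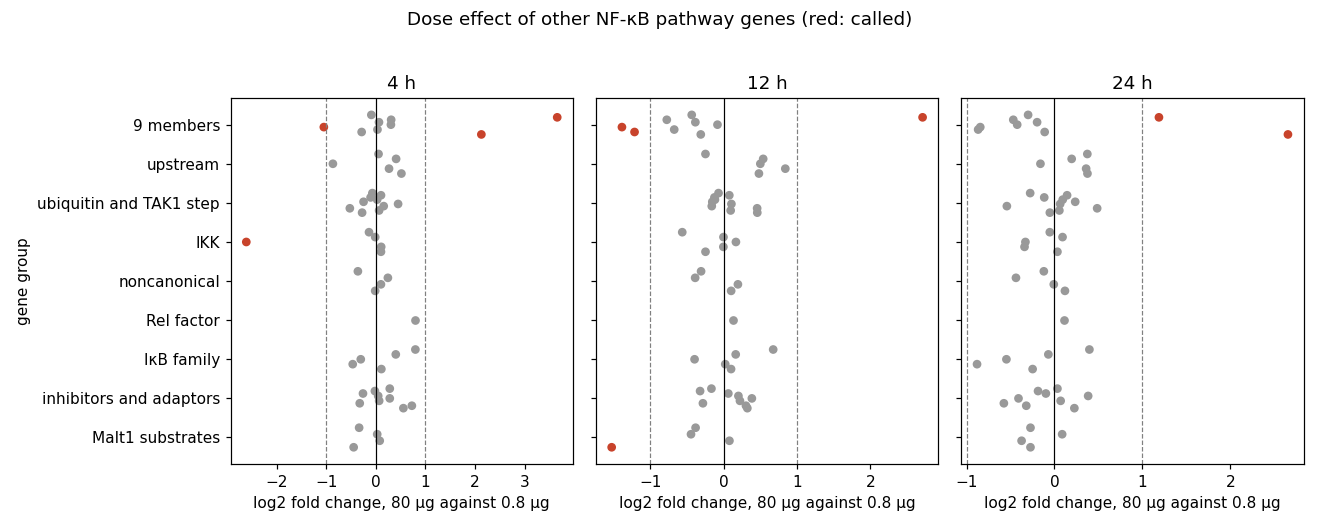
Shrunken log2 fold change of 80 µg against 0.8 µg (x axis) for the 9 members and the 43 other pathway genes by role (rows) at 4 h, 12 h and 24 h, with called genes in red and dashed lines at 1 and -1. Ikbke at 4 h (-2.61) and Zc3h12a at 12 h (-1.53) are the red points outside the members' row.

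Against the control, 9 of these 43 pathway genes were called higher and 8 lower at 4 h after 0.8 µg (17 in all, beside 40.7% of all genes tested), and 12 higher and 7 lower after 80 µg (19 in all, beside 43.5%). Of the 5 other IκB family genes, 4 were higher at 4 h at each dose, beside 17.3% and 18.4% of all genes called higher. Of the 5 genes of IKK and related kinases, 0 were higher and 2 lower at each dose, beside 40.7% and 43.5% of all genes called either way. Nfkbid, which encodes a nuclear IκB protein, was the highest of its family. Its log2 fold change was 4.70 (SE 0.17) after 0.8 µg and 4.40 (SE 0.17) after 80 µg. Rela, which encodes p65, had a log2 fold change of 0.45 after 0.8 µg, not called, and of 1.23 (SE 0.13) after 80 µg. At 12 h 5 were higher and 11 lower after 0.8 µg (beside 37.7% of all genes called), and 5 higher and 16 lower after 80 µg (beside 37.9%). At 24 h 1 was called at each dose, beside 17.3% and 20.2% of all genes, Nfkbie higher after 0.8 µg (1.06, SE 0.35) and Tab3 lower after 80 µg (-1.46, SE 0.33). The genes named here were chosen after their values were seen.

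Of 16 other known NF-κB target genes, 12 were higher and 1 lower than the control at 4 h at each dose, beside 17.3% and 18.4% of all genes called higher and 40.7% and 43.5% either way. Between doses 14, 14 and 13 of the 16 were tested at 4 h, 12 h and 24 h, and 3, 2 and 3 were called, beside 5.85%, 2.79% and 1.56% of all genes tested. At 4 h Il2ra, the alpha chain of the interleukin-2 receptor, was higher after 80 µg (log2 fold change 1.65, SE 0.23), and Cd83 (-1.97, SE 0.64) and Ltb (-1.83, SE 0.24) were lower. The count at 4 h was 2 without 0.8 µg replicate 2 or 3 or without 80 µg replicate 1 or 3. It was 4 with edgeR and in a fit of these 6 libraries alone. At 12 h Il2ra was again higher (1.13, SE 0.23) and Bcl2a1b was lower (-1.44, SE 0.38); Bcl2a1b shares much sequence with its paralogs, so its counts are uncertain. At 12 h 1 of these 16 was called without 80 µg 12 h replicate 3 and in a fit of these 6 libraries alone, and 3 were called without 0.8 µg 12 h replicate 3 and with edgeR. At 24 h Cd83 (-3.28, SE 0.67), Gadd45b (-1.51, SE 0.20) and Lta (-1.46, SE 0.24) were lower after 80 µg. These genes too were named after their values were seen.

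The genes most like each member were found from the change of the group mean rlog value from the control over the 6 immunised groups, among 6633 genes, as a description. For Malt1 the closest was Trib2, with a mean absolute difference of 0.59 on the log2 scale, followed by Mfhas1 (0.64) and Id2 (0.73). Their rise after 80 µg at 4 h was smaller, at 0.46, 0.62 and 1.22 against 2.26 for Malt1. At 12 h after 80 µg their changes were 0.27, 1.275 and -0.15 against 1.16. The 3 closest to Bcl10 were Rfx5 (0.12), Erbin (0.14) and Lrch1 (0.14), and those closest to Nfkbia were Morc2a (0.16), Slc4a7 (0.21) and Stx6 (0.24). Among the genes closest to Nfkb2 were Cd320 (0.20) and Mapk6 (0.24), and Nfkb1 was closest to Icam1 (0.27), Relb (0.32) and Adamts6 (0.34). For Relb they were Icam1 (0.30), Dnmt3a (0.32) and Nfkb1 (0.32), and for Rel they were Relb (0.33), Gramd1b (0.39) and Itm2a (0.42). Tnfaip3 had Cd69 (0.27), Ndrg1 (0.41) and Gm43430 (0.43), and Tnip3 had Tbx21 (0.44), Bhlhe40 (0.57) and Fabp5 (0.63). Those of Tnip3 depend on the rlog values of its control, which had 0 counts.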

How the data were processed

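Messenger RNA was measured by QuantSeq 3′ sequencing in 21 libraries, 3 mice in each of 7 groups. The deposited raw counts were made by the authors with Bbduk trimming, STAR 2.5.2a alignment to mm10 and HTSeq counting per gene; the annotation release, strand setting and any use of molecular identifiers were not given in the sources used here. The deposited log2 values are the authors' DESeq2 rlog transformation after low genes were removed, and were used for gene names and for the likeness of patterns.

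Genes with at least 10 counts over all samples (15300) were fitted with DESeq2 1.42.0 in R 4.3.3, a coefficient per group over all 21 libraries. Wald tests with normal-prior shrunken log2 fold changes compared doses, immunised groups with the control, and successive times; called genes had a Benjamini-Hochberg adjusted p under 0.05 and a log2 fold change above 1 in size. Independent filtering was set at 0.05. A likelihood ratio test of dose by time used the 18 immunised libraries and genes with at least 10 counts over those libraries. Intervals are 95% Wald intervals of the shrunken values. The tests were checked on simulated data with the same spread for all genes and changes larger than the threshold. That check does not bear on calls near the threshold or on libraries of uneven spread. Alternatives were edgeR 4.0.16, other scalings, filters and fits, and leaving out each library.

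The members and gene lists were chosen with earlier results of these data known. All members are named in each comparison, with up to 4 called genes of the pathway list (mean of at least 20 normalised counts) per dose comparison and the 3 genes most like each member (mean of at least 50), of which 1 is not reported here. κB and AP-1 matches were searched in the 250 bases before RefSeq starts. In the main fits the p-values rest on a spread between mice that is shared by all groups of the fit, not on that of the compared groups alone.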

Additional observations from a re-analysis of the deposited data

Results flagged for a closer look

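The effect of dose (80 µg against 0.8 µg) differed between 4 h, 12 h and 24 h for 6 members by the likelihood ratio test of DESeq2. The distance between the highest and the lowest of the 3 dose effects, on the log2 scale, was 2.97 for Tnip3, 2.47 for Malt1, 1.10 for Tnfaip3, 1.09 for Nfkb1, 0.90 for Relb and 0.73 for Nfkbia. Malt1 kept the sign of its dose effect at all 3 times. The dose effect of Nfkb1 was 0.31 at 4 h, -0.78 at 12 h and -0.47 at 24 h, none of them past the fold threshold, and the adjusted p at 4 h (0.0285) was above 0.05 with edgeR (0.058), with library totals (0.115) and on leaving out any of 4 libraries (0.114 to 0.187). The tests of Relb and Tnfaip3 were lost on leaving out single libraries.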

How the results depend on the processing

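Of 126 results for single members, 75 kept their direction and their side of the threshold under every alternative run. By adjusted p alone, without the fold threshold, the members called between doses were 6 at 12 h and 6 at 24 h (beside 6.27% and 5.93% of all genes); against the control at 24 h they were 5 after 0.8 µg and 4 after 80 µg (beside 36% and 39.1%); and from 12 h to 24 h they were 5 at each dose (beside 44% and 44.7%). Leaving out each library gave 2 to 4 members called at 24 h after 0.8 µg against the control, 4 to 6 in the interaction test, 2 to 3 between doses at each time, and at most 1 member more or fewer in the other comparisons. Values that changed sign were all of differences that were not called. On leaving out libraries, the log2 difference between doses ran from -0.14 to 0.00014 for Bcl10 and from -0.036 to 0.17 for Relb at 4 h, from -0.72 to 0.31 for Tnip3 at 12 h and from -0.29 to 0.11 for Tnfaip3 at 24 h. Against the control after 0.8 µg it ran from -0.26 to 0.22 for Tnfaip3 at 12 h, and from -0.23 to 0.051 for Tnfaip3 and -0.30 to 0.041 for Nfkbia at 24 h. Against the control after 80 µg it ran from -0.16 to 0.073 for Nfkb1 and -0.038 to 0.12 for Nfkbia at 12 h, and at 24 h from -0.048 to 0.13 for Malt1, -0.12 to 0.17 for Relb, -0.10 to 0.063 for Rel and -0.15 to 0.014 for Bcl10. Between times after 0.8 µg it ran from -0.31 to 0.00069 for Malt1 from 4 h to 12 h, and from -0.35 to 0.12 for Tnfaip3 and -0.25 to 0.036 for Relb from 12 h to 24 h. In fits of 6 libraries alone, Tnfaip3 after 0.8 µg (0.036) and Nfkb1 after 80 µg (0.021) changed sign against the control at 12 h. Scaling by library totals moved the median of all genes by up to -0.24 (80 µg at 24 h against the control) and turned Malt1 (-0.22) and Relb (-0.23) there, and Rel from 12 h to 24 h after 80 µg (-0.041); it also ended the calls of Bcl10 (-0.94) from 4 h to 12 h after 0.8 µg, Malt1 (-0.99) from 4 h to 12 h after 80 µg, Tnfaip3 (0.80) from 12 h to 24 h after 80 µg, and Tnfaip3 (adjusted p = 0.070) in the interaction test. With that scaling the share of called genes that were higher was 39.2% in place of 57% between doses at 24 h, 54% in place of 66.2% and 41.4% in place of 60.9% against the control at 24 h after 0.8 µg and 80 µg, 71.3% in place of 61.1% from 4 h to 12 h after 0.8 µg, and 49.8% in place of 61.5% from 12 h to 24 h after 80 µg. The cause of these changes was not tested. Mice with the same replicate number showed no shared deviation over 6636 genes. Their median correlation was -0.0057 over 63 pairs, against -0.017 over 126 pairs of different number, and 8 of 21 libraries were closest to their own number. What the numbers stand for was not given in the sources used here, and a shared litter, sex or sort was not tested. With the replicate number as a block, the members called were 3, 3 and 2 between doses at 4 h, 12 h and 24 h. In the interaction test they were 5, and Tnfaip3 was lost (adjusted p = 0.053). These 2 settings were chosen and tried after the results were seen: independent filtering at DESeq2's default of 0.1, and in the interaction test a filter on low counts over all 21 libraries. Neither changed a count of members called. Tnip3 after 0.8 µg at 24 h, at 4 to 7 counts per library, is limited by depth.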
